A study of Mus musculus with 12 samples.

Results

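Angptl7, Fkbp1b, Ang, 1700028P14Rik, Klhdc8a and Akr1e1 are 6 genes chosen because their signal in kidney proximal tubules of catalase-transgenic mice differed from that in the 3 other groups of the study. The genes were selected on these arrays' own log2 values in all 4 groups, so every comparison of the catalase-Tg group with another group is given here as a description, with a difference and its standard error (SE) and no p-value. The 6 genes are among 18193 genes with a probe set of their own symbol on the array. They were read through 10 of 45037 probe sets, of which 9 belong to the 18144 with a value above 4 (log2) on at least 3 of 12 arrays. Angptl7 and Fkbp1b met that filter only through the catalase-Tg arrays. Both Ang probe sets that met it also needed them, since outside catalase-Tg only wild type 2 was above 4 on either.

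The arrays were Affymetrix mouse expression arrays, hybridized with RNA from proximal tubules isolated by Percoll centrifugation from mice aged 20 weeks on a normal diet. There were 4 groups of 3 arrays. Wild-type mice carried neither alteration, and catalase-Tg mice carried a catalase transgene on an otherwise wild-type background. Loss of leptin receptor function makes dB/dB mice obese with diabetes, and dB/dB catalase-Tg mice combined that mutation with the transgene. From work on these mice, and not from the labels, the transgene is rat catalase driven by the promoter of Kap, a male-biased gene of the proximal tubule. The labels do not give the mice's sex or say that the samples of a group were separate animals, so p-values cover the variation among the arrays of a group. Outside wild type the labels do not settle whether that variation is between animals or technical. Kap, given below, ran from 8.465 to 15.26 within catalase-Tg. The wild-type arrays differed in sex-linked genes, given below, so they were not all repeats of 1 sample. Values are log2 expression, and many probe sets lay near a floor of 2.302.

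Angptl7 encodes a secreted protein of the angiopoietin-like family, known from the cornea and the outflow tissue of the eye. Fkbp1b encodes calstabin, an FK506-binding protein that attaches to ryanodine receptors and steadies the closed state of these calcium release channels. Ang encodes angiogenin, a secreted ribonuclease that cleaves transfer RNA under stress and promotes vessel growth, and Akr1e1 an aldo-keto reductase that reduces 1,5-anhydrofructose, a product of glycogen breakdown. Klhdc8a is a kelch domain gene, and 1700028P14Rik is known by its clone name.

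The promoters of 4 of the genes are shown to set Angptl7, the gene furthest above the other groups, beside a gene with a GC-rich start (Fkbp1b), the gene furthest below (Akr1e1) and Ang, whose promoter also serves a neighbouring gene. Each sequence runs from 250 bases before to 50 bases after the start in NCBI RefSeq, build GRCm38.p6, 5′ to 3′ on the gene's strand, and capitals mark a match to any of 8 short motifs searched on both strands.
Angptl7 (chr4:148500413-148500712, minus strand): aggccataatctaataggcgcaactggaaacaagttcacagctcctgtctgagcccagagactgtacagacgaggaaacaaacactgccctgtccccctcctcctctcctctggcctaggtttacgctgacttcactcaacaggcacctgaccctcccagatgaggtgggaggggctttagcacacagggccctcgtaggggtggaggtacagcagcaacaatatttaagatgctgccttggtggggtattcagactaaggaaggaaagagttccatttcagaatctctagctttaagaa
Fkbp1b (chr12:4841524-4841823, minus strand): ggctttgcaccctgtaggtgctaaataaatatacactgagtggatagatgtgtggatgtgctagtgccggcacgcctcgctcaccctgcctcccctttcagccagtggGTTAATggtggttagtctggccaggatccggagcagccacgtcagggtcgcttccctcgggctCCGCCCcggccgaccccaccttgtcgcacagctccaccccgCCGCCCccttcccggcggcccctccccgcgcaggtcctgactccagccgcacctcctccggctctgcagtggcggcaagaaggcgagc
Ang (chr14:51090827-51091126, plus strand): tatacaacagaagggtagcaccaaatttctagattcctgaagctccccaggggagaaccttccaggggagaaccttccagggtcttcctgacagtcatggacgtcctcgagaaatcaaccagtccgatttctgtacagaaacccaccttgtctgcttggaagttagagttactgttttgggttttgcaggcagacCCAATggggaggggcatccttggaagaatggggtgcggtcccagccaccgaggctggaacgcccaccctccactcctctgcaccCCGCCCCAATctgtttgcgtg
Akr1e1 (chr13:4609115-4609414, minus strand): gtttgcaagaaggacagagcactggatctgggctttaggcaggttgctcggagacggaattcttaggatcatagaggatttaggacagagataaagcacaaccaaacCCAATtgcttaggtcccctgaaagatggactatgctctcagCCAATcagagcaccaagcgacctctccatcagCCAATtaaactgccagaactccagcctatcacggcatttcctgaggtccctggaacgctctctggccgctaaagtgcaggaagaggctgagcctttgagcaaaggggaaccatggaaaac
The 300 bases of Angptl7 held none of the 8 motifs. The Akr1e1 promoter held CCAAT 3 times, at -143, -102 and -70 from the start. The Fkbp1b promoter held GGGCGG on the other strand at -79 and -38, and GTTAAT, part of the HNF1 site, at -142. The Ang promoter held CCAAT at -55 and 35 and GGGCGG, overlapping the latter, on the other strand at 30. CCAAT was in 3 of the 6 genes' promoters and in 37.4% of 32851 promoters, and GGGCGG, the Sp1 box, in 4 of 6 and in 35.7%. GTTAAT was in 1 of 6 and in 7.10%. The other motifs were in none of the 6: TATAAA (13.6% of promoters), CACGTG (7.15%), TGTTCT, the core of androgen and glucocorticoid response elements (19.0%), TGACTCA (5.20%) and AGGTCA (16.3%). The Fkbp1b promoter was 65.7% G and C and that of Akr1e1 50.7%, against a median of 52.7% over all promoters. The 6 genes lie on 6 different chromosomes.

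Within groups, pairs of arrays had r of 0.942 to 0.996, and between groups 0.938 to 0.991. Every wild-type and dB/dB catalase-Tg array had a higher mean r with another group than with its own. Wild type 1 had 0.987 with dB/dB and 0.9545 with wild type. Wild type 2 had 0.984 with catalase-Tg and 0.963 with wild type. For dB/dB catalase-Tg 1 the values were 0.983 with dB/dB and 0.961 with its own group. Every catalase-Tg and dB/dB array had its highest mean r with its own group. Catalase signal did not separate the groups. Its mean was 12.27 ± 0.24 (SD, n = 3) in catalase-Tg and 11.92 ± 1.10 in wild type, and the dB/dB and dB/dB catalase-Tg means were 12.39 and 12.44. The probe set is for mouse catalase, and whether it reads a rat transcript was not tested. Xist, which marks female cells, was high on wild type 2, at 11.91, intermediate on wild type 3, at 6.72, and at most 2.67 elsewhere. Its other probe sets read 8.62 and 9.88 on wild type 2 and 2.742 and 3.665 on wild type 3. The Y-linked genes Eif2s3y and Kdm5d read 2.30 and 2.57 on wild type 2. On all other arrays, wild type 3 among them, they read 7.88 to 8.93 and 5.65 to 6.39. Wild type 2 thus read as female, while every catalase-Tg array carried Y-linked signal. In the catalase-Tg group all 7 tested podocyte markers and all 12 endothelial markers had means below each other group's, with podocyte medians of -3.26 against wild type, -4.08 against dB/dB and -1.57 against dB/dB catalase-Tg, and 0 were called. The podocyte score, the mean distance of the markers from their 12-array means, ran from -2.65 to -1.76 in catalase-Tg, from -2.32 to 2.82 in wild type, from 0.64 to 2.93 in dB/dB and from -1.96 to 1.03 in dB/dB catalase-Tg. The endothelial score ran from -1.83 to -0.12, from -1.47 to 1.55, from 0.84 to 1.82 and from -1.19 to 1.49 in the same order. Of 12 loop of Henle and distal tubule markers, 11 had lower means in catalase-Tg than in each other group, with medians of -1.96 against wild type, -3.40 against dB/dB and -2.20 against dB/dB catalase-Tg. Their score ran from -2.08 to -1.42 in catalase-Tg, from -1.70 to 1.63 in wild type, from 1.02 to 1.43 in dB/dB and from 0.09 to 0.99 in dB/dB catalase-Tg, so that of the 9 other arrays only wild type 2 reached the catalase-Tg range. All 7 fibroblast and mural markers had lower means as well, with scores of -2.07 to -0.16 in catalase-Tg, -1.80 to 1.98 in wild type, 0.89 to 2.12 in dB/dB and -1.62 to 2.03 in dB/dB catalase-Tg. Of all these markers, 1 (a fibroblast or mural gene) had a catalase-Tg mean within 0.3 of the floor. None was called on all 12 arrays in any comparison with catalase-Tg. Without wild type 2, 7 of 19 podocyte and endothelial and 9 of 12 loop and distal markers were called lower than in wild type. In that comparison 270 of all 18144 probe sets were called. Against dB/dB, 10 of the 19 were called lower without wild type 1, and 10 without wild type 2. Of the loop and distal markers, 12 (1 of them higher) and 11 were called in the same fits. Of all probe sets, 2819 and 1263 were called there. Of 17 proximal tubule markers, 16 had a higher mean in catalase-Tg than in wild type, with a median difference of 0.69. Wild type 1 stood low on them, with a score of -2.02 against 0.49 and 0.33 on wild type 2 and wild type 3 and -0.26 to 0.73 in catalase-Tg, and without it 8 of the 17 were higher, with a median of -0.024. Kap, whose promoter drives the transgene, read 8.46, 15.26 and 15.22 on the catalase-Tg arrays. It spread as widely in wild type, at 8.63, 11.70 and 15.23. In dB/dB it ran from 12.79 to 13.70 and in dB/dB catalase-Tg from 13.04 to 15.29. The part of the sex-linked genes, of these markers and of Kap in the results on the 6 genes was not tested.

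Angptl7 was at background outside the catalase-Tg group and bright within it. Its only probe set (1451478_at) read 7.51, 7.96 and 9.47 on the catalase-Tg arrays. It read 2.49, 2.48 and 2.49 in wild type, 2.36, 2.49 and 2.37 in dB/dB, and 2.603, 2.49 and 2.49 in dB/dB catalase-Tg. No array of another group came near, and the dimmest catalase-Tg array lay 4.91 above the brightest of the 9 others. The mean of 8.32 ± 1.03 (SD, n = 3) in catalase-Tg exceeded wild type by 5.83, dB/dB by 5.91 and dB/dB catalase-Tg by 5.79, each with an SE of 0.39. Of the 9 other arrays, 8 lay within 0.3 of the floor, so the size of these differences depends on where the floor lies.

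**Figure D1:**
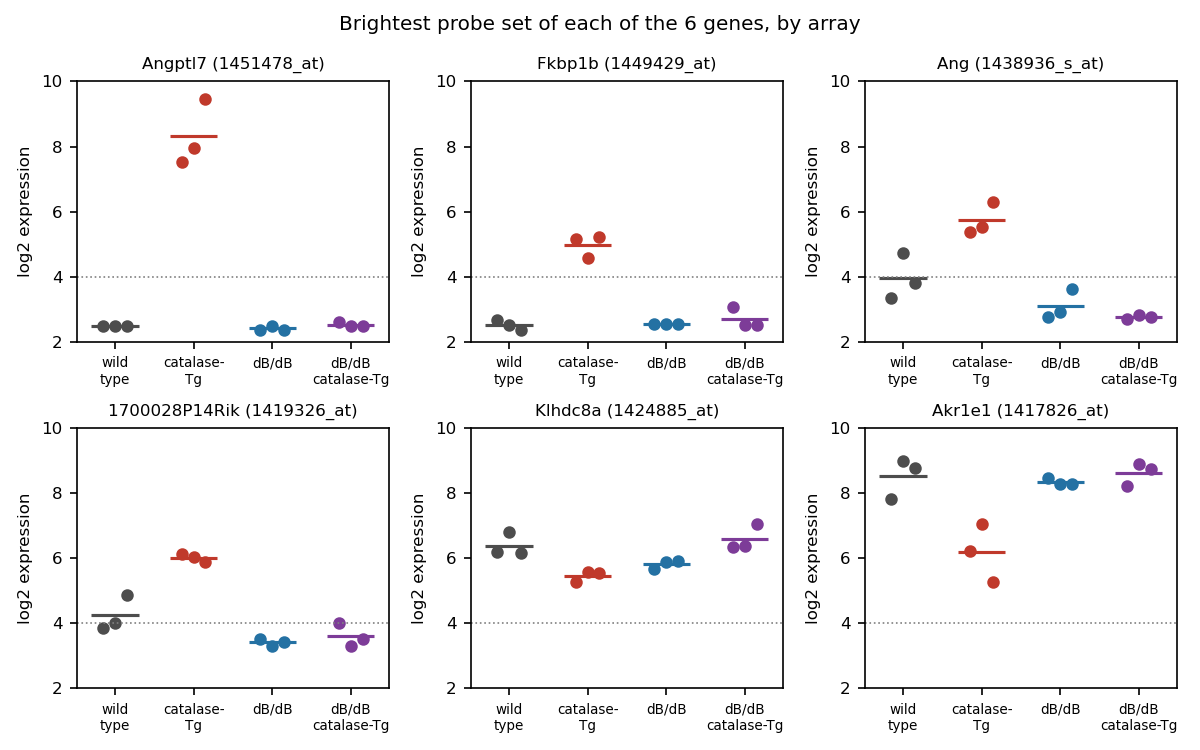
Log2 expression of the brightest probe set of each gene on the 12 arrays, by group (points, arrays; bars, group means; dotted line, the value of 4 used in the filter on low values). The 3 catalase-Tg arrays lie above the 9 others for Angptl7, Fkbp1b, Ang and 1700028P14Rik and below them for Klhdc8a, by only 0.09, and Akr1e1.

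Fkbp1b (1449429_at) showed the same on-off form at a lower level. The catalase-Tg arrays read 5.15, 4.59 and 5.21. Wild type read 2.66, 2.52 and 2.36, dB/dB 2.55, 2.54 and 2.55, and dB/dB catalase-Tg 3.07, 2.52 and 2.52. The groups did not overlap, and the closest array of another group, dB/dB catalase-Tg 1, was 1.52 below the dimmest catalase-Tg array. The difference was 2.47 from wild type, 2.44 from dB/dB and 2.28 from dB/dB catalase-Tg (SE 0.22). Its close paralog Fkbp1a, which binds the same channels and the drug FK506, was abundant on every array, from 10.11 to 10.78, and its difference from wild type was 0.10 (SE 0.19; limma adjusted p = 0.898). Ryr1, Ryr2 and Ryr3, the ryanodine receptors that Fkbp1b binds, read at most 2.49 on any array, near the floor.

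1700028P14Rik (1419326_at) was measurable in wild type and higher in catalase-Tg. It read 6.12, 6.03 and 5.87 on the catalase-Tg arrays. Wild type read 3.86, 4.02 and 4.85, dB/dB 3.51, 3.30 and 3.43, and dB/dB catalase-Tg 4.01, 3.29 and 3.52. All 3 catalase-Tg arrays were above all 9 others, by 1.02 or more. The differences were 1.76 from wild type, 2.59 from dB/dB and 2.40 from dB/dB catalase-Tg (SE 0.27).

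Ang gave an unequal picture across its 3 probe sets. The brightest (1438936_s_at) read 5.37, 5.54 and 6.30 in catalase-Tg. It read 3.36, 4.74 and 3.80 in wild type, 2.77, 2.91 and 3.61 in dB/dB and 2.70, 2.81 and 2.77 in dB/dB catalase-Tg. The catalase-Tg arrays were above the others by 0.62 at the nearest point, wild type 2. The difference was 1.77 from wild type, 2.64 from dB/dB and 2.97 from dB/dB catalase-Tg (SE 0.37). A second probe set (1438937_x_at) read 4.32, 4.03 and 3.91 in catalase-Tg and 3.22, 5.73 and 3.16 in wild type. On it catalase-Tg and wild type overlapped, with a difference of 0.05 (SE 0.55), which became 0.90 without wild type 2. Leaving out 1 array, that difference ran from -0.39 to 0.90, so its sign was not stable. Catalase-Tg stayed above dB/dB by 1.32 and above dB/dB catalase-Tg by 1.27 on that probe set. The probe set 1450717_at did not meet the filter, and its catalase-Tg mean of 2.80 was below the wild-type mean of 3.62. Against wild type, only 1 of the 3 probe sets of Ang set the catalase-Tg arrays apart.

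**Figure D2:**
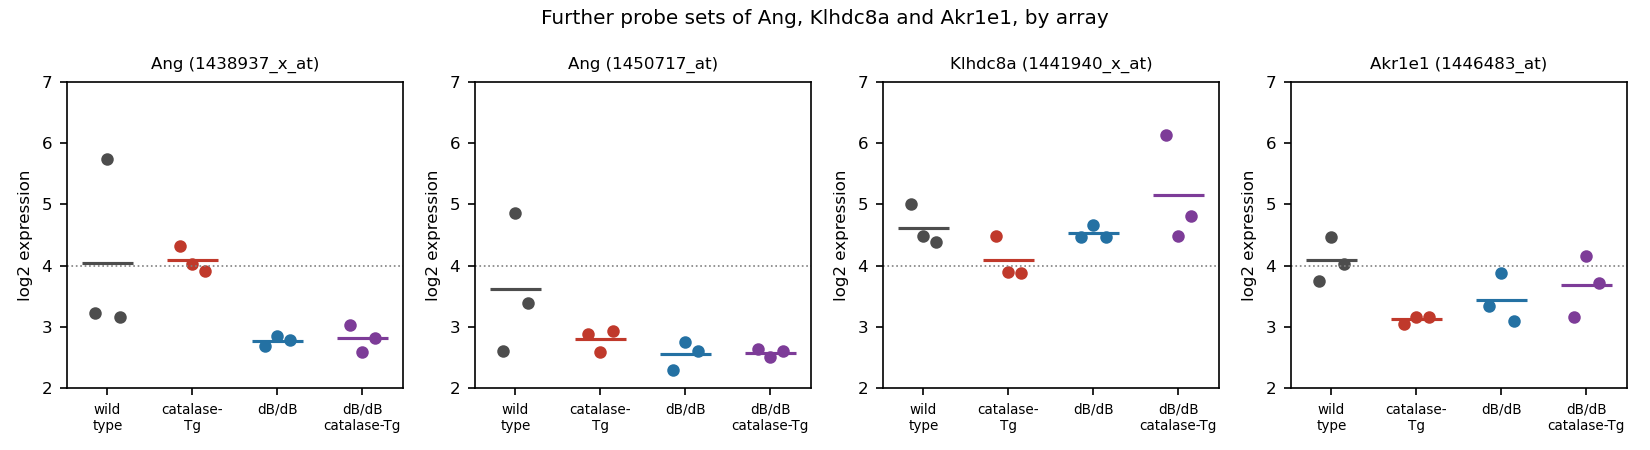
Log2 expression of the further probe sets of Ang, Klhdc8a and Akr1e1 on the 12 arrays, by group (points, arrays; bars, group means; dotted line, the filter value of 4). None of the 4 probe sets sets the 3 catalase-Tg arrays apart from all 9 others.

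Rnase4, a second ribonuclease, has a RefSeq entry for the very promoter shown for Ang and another at chr14:51095750-51096049 on the plus strand, and its gene spans Ang. Its probe set (1422603_at) read 6.43, 11.41 and 6.85 in wild type and 6.94, 7.32 and 8.04 in catalase-Tg. It read 6.28, 5.52 and 6.85 in dB/dB and 5.95, 4.604 and 4.26 in dB/dB catalase-Tg. Catalase-Tg and wild type overlapped, and wild type 2, the array of highest Rnase4, was also the highest for 2 of the 3 Ang probe sets. The Rnase4 difference from wild type was -0.79 (SE 1.09; limma adjusted p = 0.840) and 0.80 without wild type 2. The near copies Ang2 and Ang4 read at most 2.95 and 3.03 on any array and 2.30 and 2.31 in the catalase-Tg mean. Whether the Ang probe sets take up signal from such copies was not tested.

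**Figure D3:**
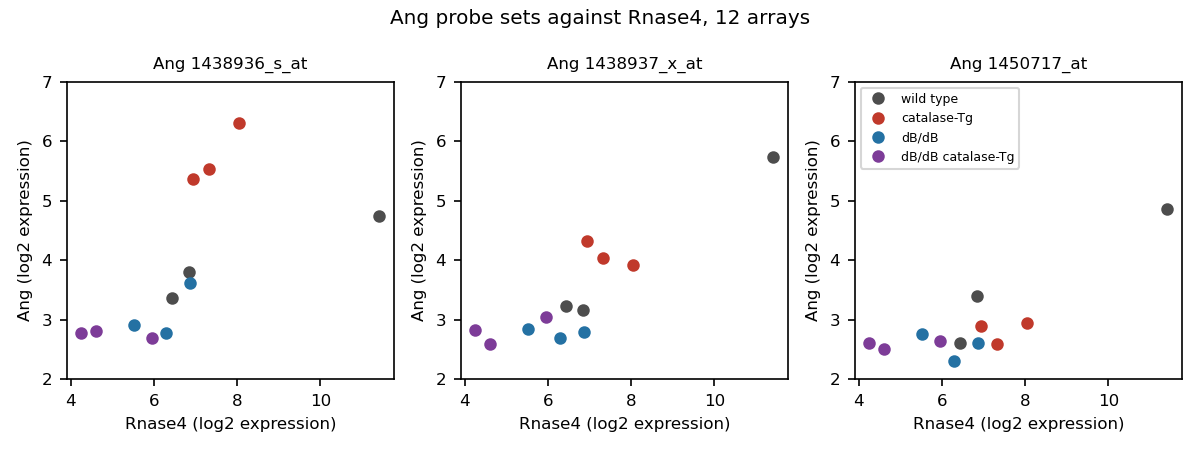
Log2 expression of the 3 Ang probe sets (vertical axes) against Rnase4 (horizontal axes) on the 12 arrays, coloured by group. The catalase-Tg arrays stand above the others on 1438936_s_at, and wild type 2, at an Rnase4 value of 11.41, is the highest array on the other probe sets.

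Akr1e1 was the member furthest below the other groups in catalase-Tg. Its bright probe set (1417826_at) read 6.24, 7.05 and 5.27 in catalase-Tg. It read 7.81, 8.999 and 8.76 in wild type, 8.47, 8.27 and 8.27 in dB/dB and 8.21, 8.89 and 8.75 in dB/dB catalase-Tg. All 3 catalase-Tg arrays lay below all 9 others, by 0.76 at the nearest point. The difference was -2.34 from wild type, -2.15 from dB/dB and -2.43 from dB/dB catalase-Tg (SE 0.43). The dimmer probe set (1446483_at) read 3.06, 3.17 and 3.17 in catalase-Tg and 3.75, 4.46 and 4.03 in wild type. Its catalase-Tg values lay below wild type, by 0.95 in the mean (SE 0.29), but overlapped with dB/dB, at 3.35, 3.88 and 3.10, and with dB/dB catalase-Tg, at 3.16, 4.16 and 3.72.

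Klhdc8a was a weak case, and the data bore out its place among the 6 only in part. The bright probe set (1424885_at) read 5.28, 5.57 and 5.55 in catalase-Tg and 5.66, 5.89 and 5.93 in dB/dB. It read 6.20, 6.80 and 6.15 in wild type and 6.34, 6.36 and 7.06 in dB/dB catalase-Tg. The highest catalase-Tg array was only 0.09 below the lowest dB/dB array. The difference was -0.92 from wild type, -0.36 from dB/dB and -1.12 from dB/dB catalase-Tg (SE 0.25). The second probe set (1441940_x_at) read 4.49, 3.89 and 3.88 in catalase-Tg and overlapped with wild type, at 5.002, 4.48 and 4.38, and with dB/dB, at 4.47, 4.66 and 4.47.

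**Figure D4:**
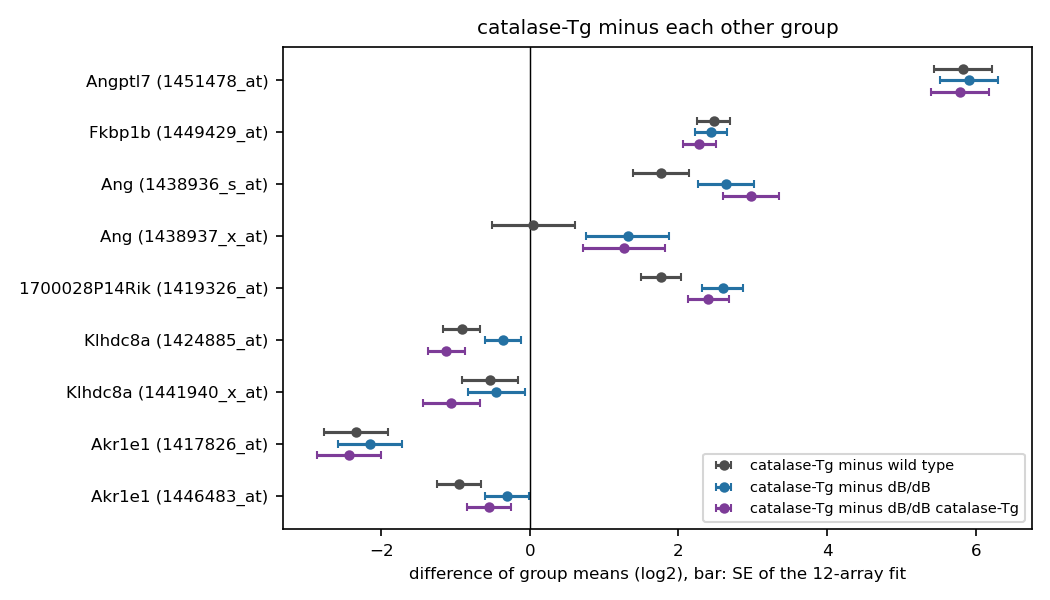
Difference of the catalase-Tg mean from each other group's mean (log2) for the 9 probe sets that met the filter; bars are the SE of the fit to 12 arrays. Angptl7 stands at 5.79 to 5.91 from all 3 groups, and Klhdc8a lies nearest to dB/dB, at -0.36.

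Over all probe sets that met the filter, 511 (2.82%) had all 3 catalase-Tg arrays above all 9 others and 430 (2.37%) below, 5.19% in all. The same held for 0.584% of probe sets with the wild-type arrays, 1.32% with dB/dB and 0.639% with dB/dB catalase-Tg. Ranked by the gap, Angptl7 was 1st and Fkbp1b 2nd of the 511, 1700028P14Rik 4th and Ang 10th. Akr1e1 was 27th of the 430 below and Klhdc8a 266th. The rule chose the genes on these levels, so their ranks are a description. Only 4 probe sets (0.022%) exceeded the 9 others by over 1, namely those of Angptl7, Fkbp1b and 1700028P14Rik and 1 without a symbol (1440662_at, 1.05). The widest gap below was that of S100g, at 1.91.

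The 3 comparisons without the catalase-Tg group ask whether the 6 genes also moved with the dB/dB mutation or with the transgene in dB/dB mice. These too were known when the genes were chosen, so the counts are a description, and a share above that of all probe sets is not read as a result. Angptl7 and Fkbp1b lay near the floor in the 3 groups compared, which leaves little room for a difference. None of the 9 probe sets passed an adjusted p of 0.05 in limma in any of them, where 0% of all probe sets passed for dB/dB against wild type and 0.00551% for dB/dB catalase-Tg against either dB/dB or wild type. At an unadjusted p under 0.05 there were 4 of the 9 for dB/dB against wild type, where 4.16% of all probe sets had one. For dB/dB catalase-Tg there was 1 in the comparison with dB/dB (7.5% of all) and 2 in that with wild type (3.46%), and the first 4 were Ang on 2 probe sets, 1700028P14Rik and Klhdc8a, all lower in dB/dB. 1700028P14Rik was lower in dB/dB than in wild type on every array, by 0.83 (SE 0.27; limma adjusted p = 0.767). Ang was lower by 0.87 on its brightest probe set, with overlap, and by 1.27 on 1438937_x_at, without overlap (limma adjusted p = 0.767 for each). Leaving out 1 array, these differences ran from -1.18 to -0.48 and from -1.70 to -0.42. Both Ang probe sets met the filter only with the catalase-Tg arrays. Klhdc8a was lower in dB/dB than in wild type by 0.56 and higher in dB/dB catalase-Tg than in dB/dB by 0.76 (SE 0.25; limma adjusted p = 0.767 and 0.636), without overlap in either case. For Angptl7 the 3 differences ran from -0.08 to 0.12, among values near the floor. For Akr1e1 they ran from -0.19 to 0.28 on the bright probe set. Of all probe sets, 8.91% had all dB/dB arrays below all wild-type arrays, and 4.87% had all dB/dB catalase-Tg arrays above those of dB/dB. All dB/dB catalase-Tg arrays lay below wild type for Ang on 1438936_s_at and 1438937_x_at, by 0.54 and 0.12 at the nearest point, as for 7.1% of probe sets.

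The relatives of the 6 genes were read from lists of their families and pathways. Over 10 such lists, 98 gene entries met the filter, 0 were called against wild type or dB/dB catalase-Tg and 1 against dB/dB. That was Cyp2d12, a female-enriched kidney gene, higher by 2.64 (SE 0.37; limma adjusted p = 0.0418), against 0.215% of probe sets called in that comparison. Against wild type 0.022% of probe sets were called and against dB/dB catalase-Tg 0.0276%. These counts turned on single arrays. The call of Cyp2d12 was lost without a filter, without wild type 3, without any 1 of the catalase-Tg or dB/dB arrays and without dB/dB catalase-Tg 2 or dB/dB catalase-Tg 3. Without wild type 2, the array of female Xist level, 4 of the 98 list entries were called against wild type, and 12 against dB/dB. In the same comparisons 270 and 1263 of all 18144 probe sets were called. A fit without wild type 2 and wild type 3 leaves wild type as 1 array, so its list entries are not counted here. Without wild type 1, 18 were called against dB/dB, where 2819 of all probe sets were called. Without dB/dB catalase-Tg 1, 9 were called against dB/dB, where 752 of all probe sets were called. Of the list of angiopoietin-like genes, angiopoietins and their receptors, 5 genes met the filter. Angpt1, which keeps vessels stable through the receptor Tie2, differed from wild type by 0.83 and Angpt2, its antagonist, by -0.82 (limma adjusted p = 0.612 and 0.598). Angptl4, an inhibitor of lipoprotein lipase, differed by 1.06 (SE 0.95). The receptors Tek, which is Tie2, and Tie1, both also endothelial markers, differed by -1.32 and -0.56 (limma adjusted p = 0.669 and 0.856). Of 12 FK506-binding proteins, 6 had a higher and 6 a lower mean in catalase-Tg than in wild type, with a median of -0.0018, and Fkbpl and Fkbp15 had the smallest p, with differences of 0.52 and 0.44. Of 10 calcium store genes, Itpr3, an inositol trisphosphate receptor, differed by -0.69 and Atp2a3, a calcium pump, by -1.09 (limma adjusted p = 0.642 and 0.691). For the ribonuclease family, Rnh1, the inhibitor that binds angiogenin, differed by -0.04, and Plxnb2, an angiogenin receptor, by -0.07. The sign for Plxnb2 turned with array weights, to 0.18.

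Of 10 aldo-keto reductases, 7 had a higher and 3 a lower mean in catalase-Tg than in wild type, with a median of 0.17 against -0.02 over all probe sets. Akr1c19 had the lowest, at -2.62 (SE 0.56; limma adjusted p = 0.315). Against dB/dB it was -3.24 (limma adjusted p = 0.0561), and its 3 catalase-Tg arrays, at 5.19, 6.23 and 6.32, lay below all 9 others. Akr1c12 differed from wild type by -0.91 (limma adjusted p = 0.485). Akr1a1, which makes ascorbate precursors, was among the brightest genes, from 14.82 to 15.63. Of 17 glycogen genes, 8 were higher and 9 lower, with a median of -0.13. Pgm2, a phosphoglucomutase, differed by -1.66 (SE 0.35; limma adjusted p = 0.309) and Pygl, the liver glycogen phosphorylase, by -2.28 (SE 0.85; limma adjusted p = 0.532). Without wild type 2, Pgm2 differed by -2.10 and Pygl by -3.38, and both were called. Of 11 kelch domain genes, Klhdc1 differed by -0.98 and Klhdc3 by 0.27 (limma adjusted p = 0.430 and 0.642), while its near namesake Klhdc8b stayed below the filter, at 2.96 to 4.22. Of 16 glucocorticoid-responsive genes, 8 had higher and 8 lower means. Mt1, a metallothionein, differed by -2.24 and Sgk1, a salt-transport kinase, by -1.98 (limma adjusted p = 0.448 and 0.507), and without wild type 2 Mt1 was called, at -2.99. Of 11 male-enriched genes, 10 had higher means, with a median of 2.14, among them Cyp4a12a at 4.48 and Cyp2j13 at 4.10 (limma adjusted p = 0.534 and 0.533). The scores of that list ran from -1.16 to 2.74 in catalase-Tg and from -2.86 to 2.30 in wild type, and their part in the values of the 6 genes was not tested.

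Genes next to the 6 on the chromosome were read for any change they shared. Of 60 neighbours, 5 on each side of each gene, 35 met the filter and 0 were called in any of the 6 comparisons. Without wild type 2, 3 of the 35 were called lower against wild type and 7 against dB/dB. Of all 18144 probe sets, 270 and 1263 were called there. Against dB/dB, 8 were called without wild type 1 (2819 of all probe sets) and 5 without dB/dB catalase-Tg 1 (752 of all). Against dB/dB catalase-Tg, 1 was called without wild type 1 (22 of all). Against wild type, 15 had a higher and 20 a lower mean in catalase-Tg, with a median of -0.06. Angptl7 lies within Mtor, a growth kinase, and Mtor differed by 0.59 (SE 0.42; limma adjusted p = 0.675). On the other side Exosc10 differed by -0.14. Sf3b6 and Ubxn2a beside Fkbp1b differed by 0.26 and 0.20, Pnp beside Ang by 0.20, and Smc5 and Ptar1 beside 1700028P14Rik by 0.20 and -0.07. Cdk18 and Nuak2 beside Klhdc8a differed by 1.00 and -0.19, and Akr1c21 and Klf6 beside Akr1e1 by 0.75 and -0.45. In 3 of the 35 neighbours the catalase-Tg arrays lay below all 9 others and in 0 above, so 8.57% were set apart on either side. Of 9738 other genes, 6.03% were set apart, 286 below and 301 above. The 3 neighbours were Akr1c19 near Akr1e1 and Fbxo44 and Fbxo6, ubiquitin ligase genes near Angptl7. Fbxo44 read 4.74, 4.76 and 4.30 in catalase-Tg and 5.59 to 6.63 elsewhere, and differed from wild type by -1.38 (SE 0.29; limma adjusted p = 0.309). Without wild type 2 that difference was -1.57 and called.

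**Figure D5:**
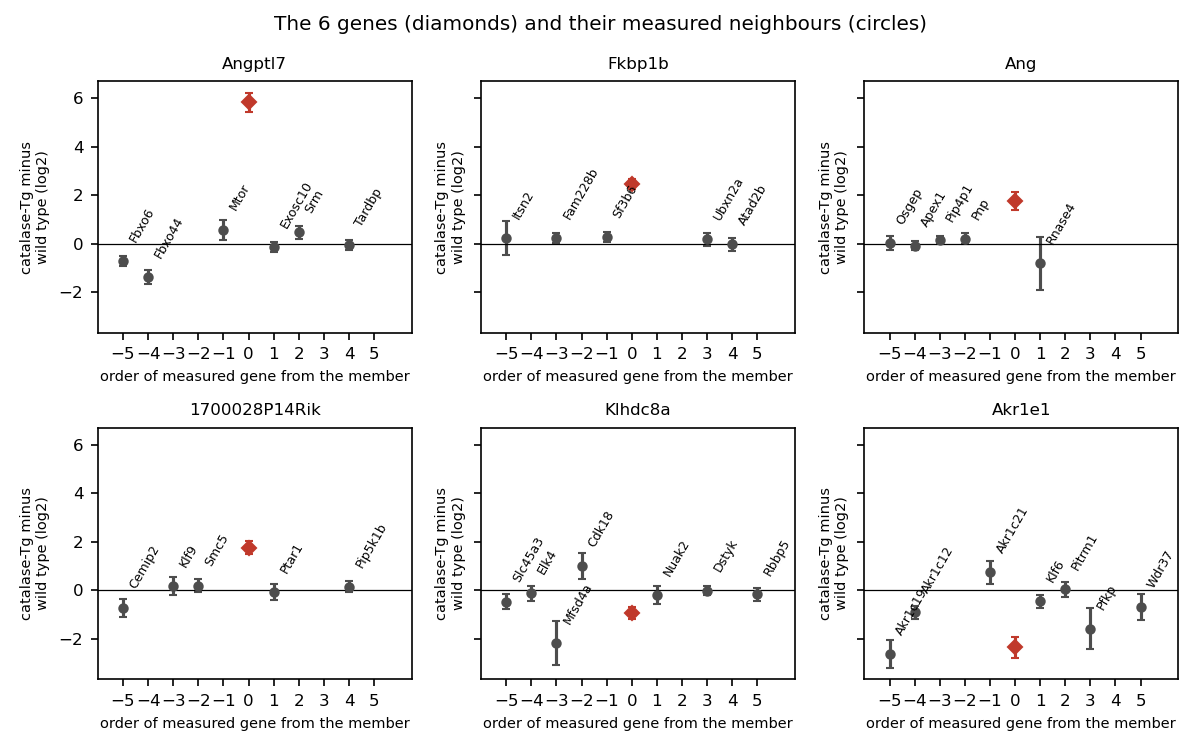
Difference of catalase-Tg from wild type (log2; bars, SE) for each of the 6 genes (diamonds) and their neighbours that met the filter (circles), in order along the chromosome; negative orders have lower coordinates. Mtor, which contains Angptl7, differs by 0.59 where Angptl7 differs by 5.83.

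The genes whose values followed each of the 6 most closely over the 12 arrays were found by Pearson's r, given here as a description. For Angptl7 they were Slc38a6, an amino acid transporter (r = 0.928), Irs2, an adaptor of the insulin receptor (0.923), and Slc25a48, a mitochondrial carrier (0.908). Over the 9 arrays without catalase-Tg, the r of the same genes was -0.04, 0.22 and 0.41, so the likeness lay in the step between catalase-Tg and the rest. For Fkbp1b they were Rtl8c (0.938), Irs2 (0.919) and Lmod1, an actin nucleator (0.918), with r of 0.366, 0.502 and 0.065 over the 9 arrays. For Ang they were Clcn6 (0.898), Triqk (0.895) and Osr2 (0.891), with r of 0.658, 0.914 and 0.747 over the 9 arrays. For 1700028P14Rik they were Fam50a (0.932), Ptpn22, a phosphatase (0.921), and Hoxc10 (0.915), with r of 0.814, 0.814 and 0.804. For Klhdc8a they were Pdxk, pyridoxal kinase (0.866), Fbxl16 (0.854) and Osbpl1a (0.813), with r of 0.848, 0.816 and 0.632 over the 9 arrays. For Akr1e1 they were Mettl23 (0.860), Zfp991 (0.852) and Efhd2 (0.837). Over the 9 arrays their r was 0.482, 0.041 and -0.755, so Efhd2 ran opposite to Akr1e1 outside catalase-Tg. These genes were picked for following genes that were themselves picked for their catalase-Tg level, so no test of them between groups is given. Slc25a48, as an example, read 5.69 ± 0.39 (SD, n = 3) in catalase-Tg and 3.91 ± 0.60 in wild type.

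The 6 genes did not rank the catalase-Tg arrays alike. Catalase-Tg 3 was the highest for Angptl7, Fkbp1b and Ang and the lowest for Akr1e1, while for 1700028P14Rik it was the lowest of the 3.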

How the data were processed

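The authors deposited 1 log2 value for each probe set and array, computed with GCRMA per the submitters' processing notes, which also list limma; versions are not given in the sources used here. GCRMA corrects background from probe sequence and normalizes between arrays, which places unexpressed probe sets near a floor of 2.302 and makes differences from the floor depend on it. No further normalization was applied. After 64 array controls were left out, 34945 of 45037 probe sets had 1 gene symbol in GEO's annotation, 932 several and 9160 none; no gene was named from the latter 2 kinds. The 6 genes, the lists and the rules were chosen with earlier results of these data known.

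Probe sets above 4 on at least 3 of 12 arrays were fitted in limma 3.58.1 (R 4.3.3), with 1 mean per group, all 12 arrays, Benjamini-Hochberg adjustment over 18144 probe sets and a threshold of 0.05, two-sided. The procedure was tested on simulated data whose noise was independent between arrays and between probe sets. That test does not cover differences between whole arrays like those seen here. Genes outside the 6 are represented by their brightest probe set. Named are all probe sets of the 6 genes, close paralogs, check genes, list members past the threshold or else the pair with the smallest p against wild type, the nearest neighbours, and the 3 genes of highest r. S100g, 1440662_at, Angptl4, Tek, Tie1, the ryanodine receptors, Rnh1, Akr1a1, Klhdc8b, Fbxo44 and Fbxo6 were named after their values were seen, as was the count of neighbours set apart. Other filters, normalizations, arrays in the fit, array weights, a replicate block and leaving out each array were tried, and 2 sets of left-out arrays were added after seeing the data. The number of arrays limits the precision.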

Additional observations from a re-analysis of the deposited data

Results flagged for a closer look

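Klhdc8a (1424885_at) differed in opposite directions with the transgene in the 2 kinds of mice. Catalase-Tg minus wild type was -0.92, with all catalase-Tg arrays below all wild-type arrays, and dB/dB catalase-Tg minus dB/dB was 0.76, with all arrays above. Read the other way, dB/dB minus wild type was -0.56 and dB/dB catalase-Tg minus catalase-Tg was 1.12, again without overlap. The difference between these effects was not tested, since the gene was chosen with all 4 group levels known. On the second probe set the catalase-Tg and wild-type arrays overlapped, as did those of dB/dB catalase-Tg and dB/dB and those of dB/dB and wild type.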

How the results depend on the processing

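The catalase-Tg arrays lay on one side of the others in all 6 genes after median centring and after quantile normalization, and in the 3 genes that met a filter above 6; leaving out arrays cannot end such a separation. Of 387 differences from catalase-Tg, 379 moved by less than the spread between arrays and 8 by more, without a change of sign where the groups did not overlap: Angptl7 without catalase-Tg 3 (5.21 to 5.33); without wild type 2 and wild type 3, Ang (2.38 and 0.87), 1700028P14Rik (2.14) and Akr1e1 (-1.63); and Ang 1438937_x_at without wild type 2 (0.90). Where the groups overlapped, the sign changed for Ang 1438937_x_at against wild type, which ran from -0.47 to 0.90 over the settings. The causes of changes in this section were not tested.

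Probe sets called against wild type in catalase-Tg numbered 4, and 14 without a filter, 0 on the 6 arrays alone, 31 without 3 arrays of low weight (the first of each group but dB/dB), 2180 without wild type 2 and wild type 3 (a wild-type arm of 1 array, assumed to vary like the other groups), and 3 to 270 leaving out 1 array. Against dB/dB they numbered 39, and 23 without a filter, 16 above 6, 71 after quantile normalization, 3821 on the 6 arrays alone, 9385 with array weights, 7284 without the 3 arrays, 2401 without the wild-type pair and 2 to 2819 leaving out 1. Against dB/dB catalase-Tg they numbered 5, and 1 above 6, 3 after quantile normalization, 883 with weights, 23 without the 3 arrays, 174 without the wild-type pair and 1 to 22 leaving out 1. For dB/dB against wild type they numbered 0, and 6 without a filter, 4875 without the 3 arrays and 0 to 107 leaving out 1. With the transgene in dB/dB mice (dB/dB catalase-Tg minus dB/dB) they numbered 1, and 3 without a filter, 2 on the 6 arrays, 6989 with weights, 5043 without the 3 arrays and 0 to 4 leaving out 1. For dB/dB catalase-Tg against wild type they numbered 1, and 8 without a filter, 0 after centring, 0 on the 6 arrays, 24 without the 3 arrays, 29 without the wild-type pair and 0 to 7 leaving out 1.

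With the replicate number as a block, 2186 probe sets were called for catalase-Tg against dB/dB, and with them 22 of the list entries, 8 neighbours and 15 of the 19 podocyte and endothelial markers; the counts of probe sets called in the 5 other comparisons stayed within 1.5 times. In the same comparison array weights called 60 of 98, 15 of 35 and 19 of 19, and 9385 of all 18144 probe sets. The 6 arrays alone called 31, 12 and 17, and 3821 of all probe sets. Same-numbered arrays deviated together at r = -0.18 to 0.71 (over 0.1 in 13 of 18 pairs) against -0.63 to 0.58 for different numbers (10 of 36). Of 12 arrays, 6 correlated best with their own number. The labels do not say whether the numbers pair samples, and these values do not settle it. The main fit did not use the numbers.

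Some differences of the 6 genes without catalase-Tg changed sign. Fkbp1b in dB/dB minus wild type was -0.034 after centring, -0.0079 after quantile normalization, -0.11 without the wild-type pair and -0.046 to 0.10 leaving out 1 array. In dB/dB catalase-Tg minus dB/dB, with array weights and without the 3 arrays, Fkbp1b was -0.0065 and -0.022, Ang 1438937_x_at -0.027 and -0.066, and 1700028P14Rik -0.013 and -0.00997. Leaving out 1 array gave -0.022 to 0.25, -0.066 to 0.16 and -0.00997 to 0.35, and -0.0031 to 0.50 for Akr1e1 1446483_at. Klhdc8a 1441940_x_at in dB/dB minus wild type was 0.11 without the 3 arrays and -0.20 to 0.11 leaving out 1. Klhdc8a 1424885_at in dB/dB catalase-Tg minus wild type ran from -0.033 to 0.41. Akr1e1 in dB/dB minus wild type was 0.52 without the wild-type pair and -0.55 to 0.047 leaving out 1, and in dB/dB catalase-Tg minus wild type -0.064 without the 3 arrays and -0.27 to 0.33.

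Calls were gained by 1700028P14Rik in dB/dB minus wild type without the 3 arrays (-1.02, limma adjusted p = 0.0197), and in dB/dB catalase-Tg minus dB/dB by Klhdc8a with weights (0.91, 0.00584) and without the 3 arrays (0.88, 0.0388) and by Akr1e1 1446483_at with weights (0.61, 0.0262). Among genes beside the 6, catalase-Tg minus wild type turned for Rnase4 (1.00 without the wild-type pair), Plxnb2 (0.18 with weights, 0.27 without the 3 arrays), Pnp (-0.036 without the 3 arrays), Ptar1 (0.037 after quantile normalization) and Nuak2 (0.35 without the wild-type pair). Leaving out 1 array it ran from -1.69 to 0.80 for Rnase4, -0.25 to 0.16 for Plxnb2, -0.042 to 0.33 for Pnp, -0.048 to 0.35 for Smc5, -0.39 to 0.23 for Ptar1 and -0.47 to 0.22 for Nuak2.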
